A study of Bos taurus with 10 samples.

Results

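The probe sets described here are those that a human expression array assigns to POU5F1 and its human copies POU5F1B, POU5F1P3 and POU5F1P4, to SOX2 and to LIN28A. They were chosen by their platform gene symbols, and all probe sets with those symbols were taken, with no filter on dim signal. Of 8 such probe sets, 6 had values and 2 further SOX2 probe sets were blank on all 10 arrays. They cover all 6 symbols, of 7482 symbols named by the 10186 probe sets with values.

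Total RNA of cattle (Bos taurus) was hybridised across species to this human array. There were 3 arrays of embryos made by in vitro fertilization (IVF, fertilization of the oocyte outside the animal), each labelled as a pool. Adult tissue was represented by spleen, muscle, lung, liver, kidney, heart and brain, with 1 array each. The sources used here do not give the stage of the embryos, the number in each pool, the breed, sex and exact age of the animals, or whether the 3 pools were collected separately. The spread between embryo arrays may therefore be technical, and p-values measure only the spread between these arrays. Each tissue is known from 1 array, and the spread among adult arrays is one between different tissues.

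POU5F1, also called OCT4, is a POU-domain transcription factor, and SOX2 is a transcription factor of the HMG-box family. In pluripotent cells they bind DNA side by side at shared target genes and maintain each other's expression. POU5F1 is best known from the early embryo and the germ line, whereas SOX2 is also used by neural stem cells, glia and some epithelia such as that of the airway. LIN28A is an RNA-binding protein of early embryonic cells that blocks the maturation of the let-7 microRNAs, which are themselves brakes on growth genes.

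Intensities are given as deposited where a value on each array is listed, and after quantile normalization (which gives every array the same distribution) elsewhere. Differences are on a log2 scale after adding an offset of 72 to the normalised intensity, which understates changes of dim probe sets. Differences between embryos and tissues were tested with limma over all 10186 probe sets, and adjusted p-values are by the Benjamini-Hochberg method.

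The 4 POU5F1-related probe sets and SOX2 were bright in embryos and LIN28A lay near the middle of the embryo arrays, while in adult tissues all 6 were dim with the exception of SOX2 in brain. The embryo values lay above all 7 tissues for each of the 6 probe sets, where 9.43% of all probe sets had such a separation. All 6 were higher in embryos by limma at an adjusted p under 0.05, a call made for 5.46% of all probe sets (556 of 10186, with 177 or 1.74% lower).

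The probe set whose annotation lists POU5F1 itself also lists the copies POU5F1B, POU5F1P3 and POU5F1P4. Its deposited intensities were 555.5, 599.3 and 525.0 on the embryo arrays. In the adult tissues they were 11.0 in brain, 8.3 in heart, 7.5 in kidney, 12.9 in liver, 8.7 in lung, 8.7 in muscle and 7.1 in spleen. The groups did not overlap. Within their own arrays the tissue values lay between the 4.08th and the 7.79th percentile of all probe sets, and the embryo values between the 87.1th and the 94.8th. After normalization the means were 521 ± 127 in embryos (SD, n = 3) and 9.16 ± 3.66 in tissues (SD, n = 7). The log2 difference was 2.85 ± 0.22 (SE), with a limma adjusted p of 1.87e-05. No plain ratio to the tissues is given for this or the other probe sets, since the files do not show whether the dim tissue values lie above background.

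The other POU5F1-related probe sets are named after human copies of the gene. POU5F1B is a retrocopy of POU5F1, and POU5F1P3 and POU5F1P4 are processed pseudogenes. All 4 probe sets carry the suffix that the array's maker gives to sets with probes that can match other sequences as well. The bovine RefSeq gene table (ARS-UCD2.0) has 1 row with the symbol POU5F1 and 0 rows with the symbols or synonyms POU5F1B, POU5F1P3 or POU5F1P4. The 4 probe sets can therefore not be treated as readings of 4 bovine genes, and what each one binds in bovine RNA was not tested.

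The POU5F1P3 probe set read 602.3, 660.0 and 690.0 on the embryo arrays as deposited. In tissues it read 2.7 in brain, 1.7 in heart, 1.6 in kidney, 2.5 in liver, 9.7 in lung, 2.1 in muscle and 12.3 in spleen. Lung and spleen were the brighter tissues, though both stayed at or below the 5.82th percentile of their arrays. Embryos exceeded tissues by 3.14 ± 0.21 log2 (SE, limma adjusted p = 6.2e-06), ranking 13th by size among all probe sets.

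The POU5F1P4 probe set read 476.8, 634.3 and 623.5 on the embryo arrays as deposited. In tissues it read 9.0 in brain, 12.3 in heart, 7.8 in kidney, 11.2 in liver, 20.9 in lung, 19.9 in muscle and 23.4 in spleen. Spleen, lung and muscle lay close together at the top of a narrow adult range. The log2 difference was 2.80 ± 0.20 (SE, limma adjusted p = 9.91e-06).

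The POU5F1B probe set read 423.7, 569.3 and 486.4 on the embryo arrays as deposited. In tissues it read 23.6 in brain, 42.6 in heart, 25.8 in kidney, 32.3 in liver, 19.3 in lung, 31.5 in muscle and 2.0 in spleen. It had the widest adult range of these 4 probe sets, with heart brightest at the 20.3th percentile of its array and spleen dimmest at the 2.17th. The log2 difference was 2.41 ± 0.23 (SE, limma adjusted p = 8.34e-05).

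Although all 4 POU5F1-related probe sets separated embryos from tissues, they did not order the 7 tissues alike. As a description over 7 tissues (log2 normalised values), the Pearson correlation was 0.73 between the POU5F1 and POU5F1B probe sets and 0.64 between those of POU5F1P3 and POU5F1P4. It was -0.68 between POU5F1P3 and POU5F1B, and -0.40 between POU5F1 and POU5F1P3. With the values as deposited these 4 correlations were 0.38, 0.78, -0.87 and -0.38. Spleen was the brightest tissue for POU5F1P3 and POU5F1P4 and the dimmest for POU5F1B and POU5F1. The points share their arrays, and nearly all lie in the dim end of their array, where the files give no measure of detection.

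**Figure D1:**
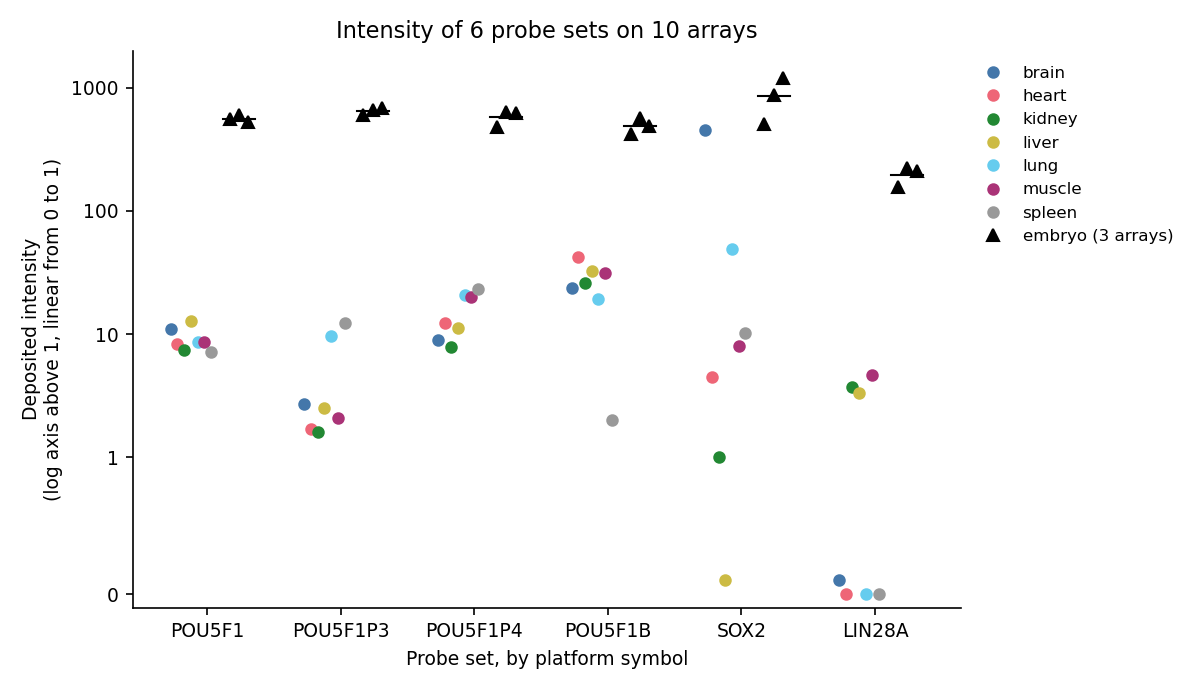
Deposited intensity (vertical axis, logarithmic above 1 and linear from 0 to 1) of the 6 probe sets on the 7 tissue arrays (coloured circles) and the 3 embryo arrays (black triangles, with their mean as a line). The embryo values lie above all tissues in each column, by a wide gap except for SOX2, where brain reads 457.5 against 509.8 on the lowest embryo array.

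SOX2 was the exception in that an adult tissue also gave a bright signal. Its probe set with values read 509.8, 873.2 and 1202.0 on the embryo arrays as deposited. In brain it read 457.5, in lung 49.5, in spleen 10.2, in muscle 8.0, in heart 4.5, in kidney 1.0 and in liver 0.1. Brain stood at the 86.7th percentile of its array and lung at the 18.8th, while the other 5 tissues lay at or below the 5.24th. The normalised means were 791 ± 205 in embryos (SD, n = 3) and 64.3 ± 138 in tissues (SD, n = 7), with 374 in brain and 52.8 in lung.

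The log2 difference of SOX2 between embryos and the 7 tissues was 3.0 ± 0.50 (SE, limma adjusted p = 0.00361). Its SE was the largest of the 6. Without the brain array the difference was 3.33 and the adjusted p 4.37e-05. In a fit with 1 coefficient for each of the 8 groups, embryos exceeded brain by 0.92 ± 0.32 (SE), a difference that did not pass (limma adjusted p = 0.116, 95% interval 0.05 to 1.79 before adjustment). Across the alternatives run this adjusted p lay between 0.0556 and 0.423, and it never passed. Against lung the difference was 2.76 ± 0.32 (SE, limma adjusted p = 0.0133), and against the other 5 tissues it lay between 3.39 in spleen and 3.55 in liver.

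LIN28A was the dimmest of the 6 in embryos and was dimmer still in tissues. Its deposited intensities were 156.8, 222.2 and 212.2 on the embryo arrays. It was listed at 0 in heart, lung and spleen, at 0.1 in brain, 3.3 in liver, 3.7 in kidney and 4.7 in muscle. The groups did not overlap. On the embryo arrays it lay between the 47.4th and the 66.4th percentile, near the middle of the array, and in tissues at or below the 3.77th. The normalised means were 176 ± 34.3 in embryos (SD, n = 3) and 1.78 ± 2.23 in tissues (SD, n = 7), and the log2 difference was 1.74 ± 0.28 (SE, limma adjusted p = 0.00305). Without the second embryo array that adjusted p was 0.0521. A filter that asks for a signal above the array median on at least 3 arrays leaves LIN28A untested, since its normalised signal passed the median on 2 of the 3 embryo arrays.

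**Figure D2:**
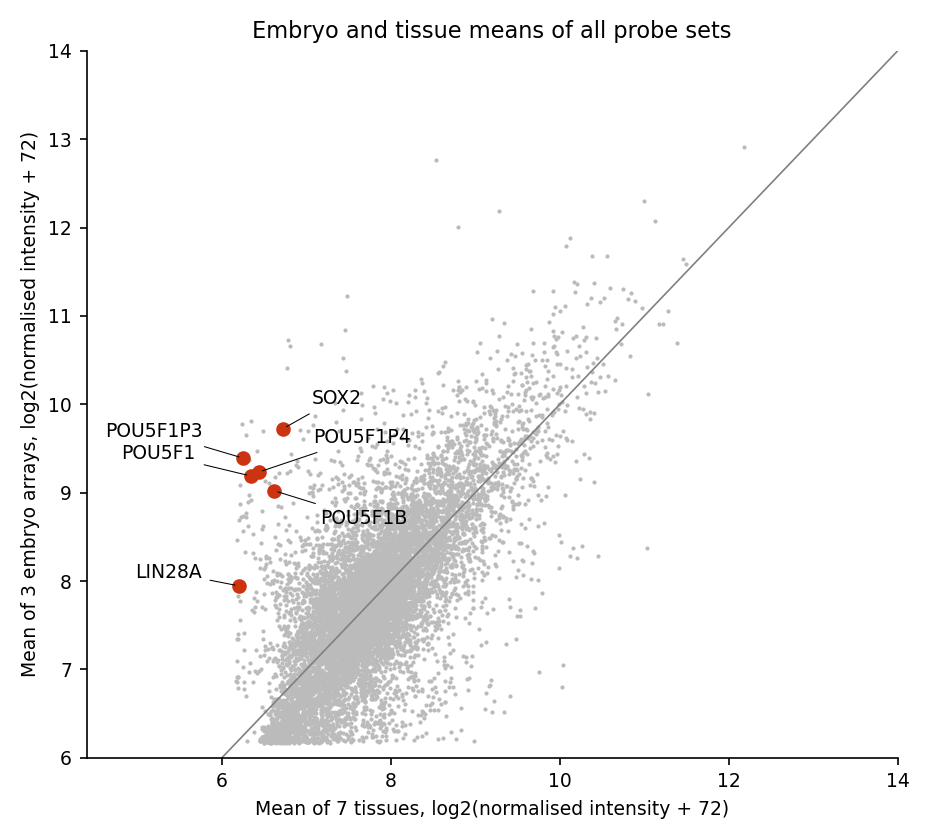
Mean of the 3 embryo arrays (vertical) against the mean of the 7 tissue arrays (horizontal) for all 10186 probe sets, both as log2 of the normalised intensity plus 72, with equality as a line and the 6 probe sets in red. All 6 lie near the left edge, with tissue means from 6.205 for LIN28A to 6.724 for SOX2, and LIN28A lies lowest of the 6.

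Set against all probe sets, the differences of POU5F1P3, SOX2, POU5F1, POU5F1P4, POU5F1B and LIN28A ranked 13th, 17th, 21st, 23rd, 55th and 139th by size. An exact permutation test over the 120 ways of choosing 3 of 10 arrays gave p = 0.0167 (two-sided) for each of the 6 probe sets, the smallest value the design allows. Any probe set with all embryo values above all tissues gets this p. It therefore restates that separation, which 9.43% of all probe sets had, and adds nothing to it.

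Those tests count the 3 embryo arrays as independent. With the 3 arrays averaged and counted as 1 sample, the differences keep their size by construction and none of the 6 passed. The limma adjusted p was 0.103 for POU5F1, POU5F1P3 and POU5F1P4, 0.129 for POU5F1B, 0.458 for SOX2 and 0.519 for LIN28A, in a fit that called 3 of 10186 probe sets higher (0.0295%) and 0 lower, with 631 of all probe sets at an unadjusted p under 0.05 in either direction, the 6 among them.

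Embryos were then set against each tissue in turn, in the fit with 8 groups. Each tissue is 1 array there and the spread comes from the embryo arrays alone, which may be technical, so these calls compare single arrays with 3 and say nothing of the spread between animals. Of the 42 pairs of a probe set and a tissue, 41 were higher in embryos, and SOX2 against brain was the pair that did not pass. Among all probe sets, 170 (1.67%) were higher in embryos against every tissue in this fit, and 5 of the 6 were among them. The share of all probe sets called higher in embryos was 10.9% against brain, 11.5% against heart, 7.12% against kidney, 12.7% against liver, 6.5% against lung, 13.6% against muscle and 4.58% against spleen. POU5F1 differed from the tissues by 2.72 (liver) to 2.91 (spleen), POU5F1P3 by 3.03 (spleen) to 3.19 (kidney) and POU5F1P4 by 2.70 (spleen) to 2.95 (brain). POU5F1B differed by 2.01 (heart) to 2.82 (spleen) and LIN28A by 1.68 (muscle) to 1.77 (heart). The count rests on the embryo arrays kept: with 1 left out in turn 24 of the 42 pairs passed without the first, 6 without the second and 41 without the third.

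**Figure D3:**
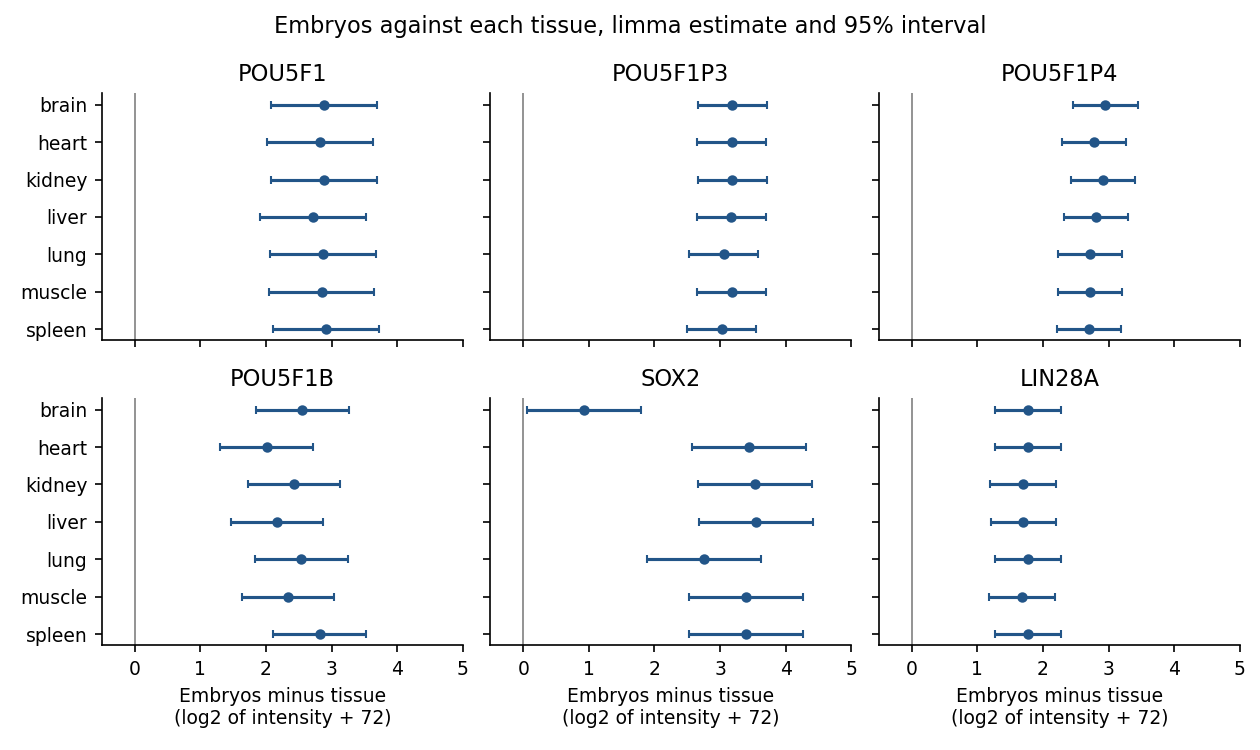
Difference between embryos and each tissue for the 6 probe sets (horizontal axis, log2 of normalised intensity plus 72), as the limma estimate with its 95% interval. POU5F1B ranges from 2.01 to 2.82 and the other POU5F1-related sets and LIN28A less widely, whereas in the SOX2 panel brain lies at 0.92 and the other tissues between 2.76 and 3.55.

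In tissues the order of levels can be read only for SOX2. Brain was brightest, then lung, and the remaining 5 tissues were all at 10.2 or less as deposited. For POU5F1, POU5F1P3, POU5F1P4 and LIN28A all tissue values were 23.4 or less, and with 1 array per tissue no neighbouring tissues can be told apart. In bulk RNA, fewer cells that express a gene and less RNA per cell cannot be told apart.

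SOX2 and the POU5F1-related probe sets had different profiles over the 3 embryo arrays. Relative to its own embryo mean, deposited SOX2 was 0.592 on the first, 1.01 on the second and 1.40 on the third array, while POU5F1 was 0.992, 1.07 and 0.938. The other POU5F1-related sets were, like SOX2, lowest on the first array, though by less. POU5F1P3 was 0.926, 1.01 and 1.06, POU5F1P4 0.825, 1.10 and 1.08, and POU5F1B 0.859, 1.15 and 0.986. The ratio of the SOX2 to the POU5F1 intensity within an array, which no scaling by a constant alters, was 0.918, 1.46 and 2.29, and 0.922, 1.45 and 2.60 after quantile normalization. The third array had the highest median deposited intensity, 221 against 123.7 and 160.45. After normalization all 4 POU5F1-related sets and LIN28A were lowest on that array, at 0.732 to 0.876 of their means, whereas SOX2 was highest, at 1.25. As deposited, the third array was lowest for POU5F1 alone among these 5. The 3 arrays are replicates, and no test was made of differences between them.

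**Figure D4:**
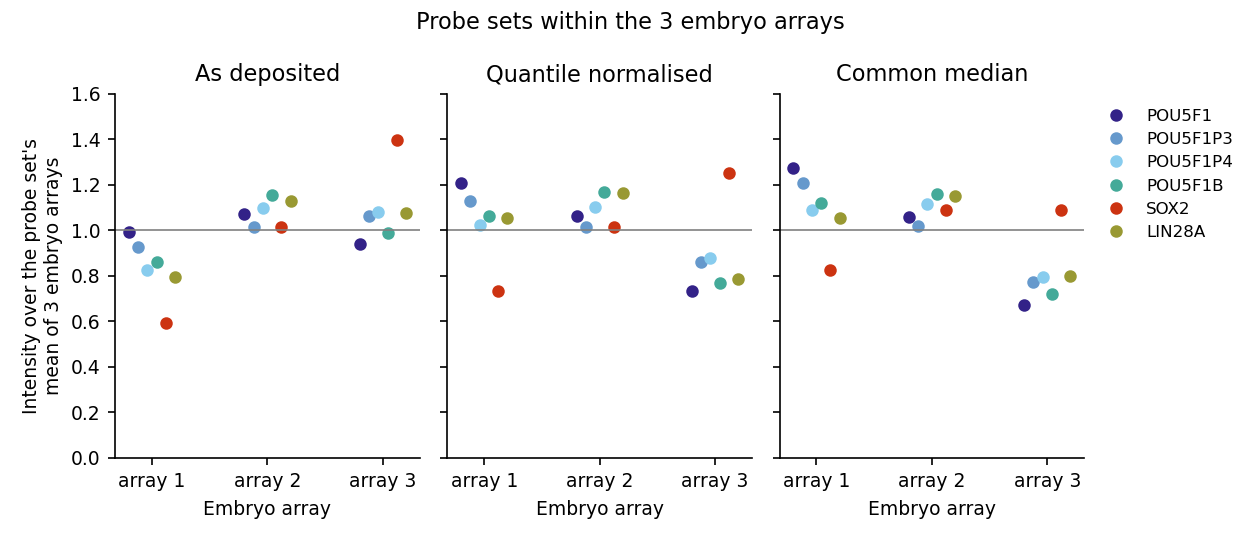
Intensity of each probe set on each embryo array, divided by its mean over the 3 embryo arrays, with values as deposited, quantile normalised and scaled to a common median. SOX2 (red) lies below the other 5 on the first array and at or above them on the third array in all 3 panels, and the level of the other 5 on the third array depends on the scaling.

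The genes with the most similar pattern over the 8 groups (embryo mean and 7 tissues, Pearson correlation of log2 values, among 4394 probe sets with 1 symbol and a mean above the median) differed between SOX2 and the others. For POU5F1 they were SFN (0.968), an epithelial cell cycle regulator, NUDT13 (0.965), a Nudix hydrolase, SNRPA1 (0.962), a spliceosome protein, CSNK2A1 (0.960), a catalytic subunit of casein kinase 2, and EIF2S2 (0.943), a subunit of translation initiation factor 2. LIN28A gave the same 5 genes, at 0.970 for SFN down to 0.936 for EIF2S2. SFN read 2447 in embryos and between 55.8 and 203 in tissues on this probe set, and CSNK2A1 read 490 against 123 to 182. These correlations are descriptions, and the 8 points of each probe set share their arrays. No tissue read above 16.7 for POU5F1 or 4.83 for LIN28A after normalization, so the embryo point sets most of both patterns. That they share their nearest genes adds nothing to this.

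For SOX2, itself bright in brain, the nearest genes were also brightest in brain among the tissues, which choosing by likeness favours. They were ABCC5 (0.974), a drug and nucleotide exporter, SYNCRIP (0.950), an RNA-binding protein, GARS1 (0.939), glycyl-tRNA synthetase, PGAP2 (0.935), a GPI-anchor remodelling protein, and SOCS2 (0.933), an inhibitor of cytokine signalling. ABCC5 read 546 ± 166 (SD, n = 3) in embryos, 384 in brain and no less than 104 in any tissue. Of these 5, ABCC5 (log2 difference 1.41, limma adjusted p = 0.0147) and GARS1 (1.77, 0.0027) were higher in embryos and the other 3 did not pass. SYNCRIP has 5 probe sets that differ in pattern, and its brightest had a log2 difference of 0.25. With the values as deposited 4 of the 5 genes of POU5F1, 3 of those of SOX2 and 4 of those of LIN28A were again among the nearest 5. With the tissues alone, or with Spearman's correlation, 0 of the 5 were, for all 3.

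Other genes of the pluripotency network were counted by their brightest probe set, and the lists were drawn up knowing earlier results of these data. Over all 6732 genes with a symbol of their own, 5.01% were higher and 1.75% lower in embryos, with a median log2 difference of -0.05. Of 34 network genes 16 had values, 3 were higher and none lower, and the median was -0.09. KLF5, a Kruppel-like factor of early embryo cells, read 480 ± 5.85 in embryos (SD, n = 3) and 30.4 ± 56.6 in tissues (SD, n = 7) (log2 difference 2.56, limma adjusted p = 0.00076). MYCN, a proto-oncogene of the MYC family, read 375 ± 50.9 against 22.2 ± 39.0, with brain brightest among the tissues at 107 (2.32, 0.000903). DNMT3B, a de novo DNA methyltransferase, read 239 ± 7.46 against 20.3 ± 10.6 (1.76, 0.000932). All 3 of these calls were lost with the embryo arrays averaged (limma adjusted p from 0.315 to 0.367).

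KLF4, the Kruppel-like factor used with POU5F1 and SOX2 in reprogramming, read 1077 ± 44.3 (SD, n = 3) in embryos and did not pass, with 1113 in lung (log2 difference 1.88, limma adjusted p = 0.0681). KLF2 read 7.07 in embryos and 103 in tissues (-0.89, limma adjusted p = 0.355). PRDM14, TFCP2L1 and GDF3, further genes of the network, had log2 differences of 0.46, 0.36 and -0.28 and did not pass. NANOG, SALL4 and ZFP42 had no probe set with values under their symbol alone, and so were not analysed here.

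Of 18 genes listed as targets of POU5F1 and SOX2, 8 had values, 1 was higher and none lower, with a median of -0.19. The gene that rose was JARID2, a partner of Polycomb repressive complex 2, at 873 ± 87.2 in embryos (SD, n = 3) and 232 ± 130 in tissues (SD, n = 7) (log2 difference 1.74, limma adjusted p = 0.00765). That call was lost with the embryo arrays averaged (limma adjusted p = 0.543) and without the first embryo array (0.0535). Its other probe set rose by 2.49 (limma adjusted p = 0.000261). FGF4, a growth factor that is a classic joint target, read 43.3 in embryos and 76.9 in tissues (-0.21, limma adjusted p = 0.797). TRIM24, a chromatin reader, and EPHA1, an ephrin receptor, had the largest differences among those that did not pass, at 0.92 (limma adjusted p = 0.2) and -0.85 (0.0904).

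No other member of either transcription factor family was called. Of 14 other POU genes 5 had values and none passed by limma (0 at an unadjusted p under 0.05), with a median of -0.22 and log2 differences from -0.60 for POU4F2 to 0.10 for POU1F1. Of 19 other SOX genes 8 had values and none passed by limma (1 at an unadjusted p under 0.05), with a median of -0.32. SOX3, the closest relative of SOX2 with values, read 165 in embryos and 95.6 in tissues (0.55, limma adjusted p = 0.328). SOX9 and SOX10, which glial cells also use, were brightest in brain at 798 and 310 and read 65.6 and 3.53 in embryos.

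Of 22 let-7 processing genes, which act with or beside LIN28A on let-7, 11 had values and none passed by its brightest probe set, with 1 at an unadjusted p under 0.05 by limma and a median of -0.15. DICER1, which cuts the precursor, had a log2 difference of 0.35 (limma adjusted p = 0.538) and DROSHA, which releases it, -0.47 (0.191). By brightest probe sets AGO4 and TARBP2 had the largest differences, at -0.73 and -0.63 (limma adjusted p = 0.317 and 0.452). Of the 9 other probe sets of these genes, 2 were higher and 1 lower. Those of DICER1 went the opposite way to its brightest, at -1.35 (limma adjusted p = 0.0092) and -0.88 (0.142), and those of SYNCRIP, an RNA-binding protein, included 2.08 (0.000752) and 0.75 (0.0408). The probe sets of DICER1 thus disagree, and no direction is given for that gene. Those of SYNCRIP all had positive log2 differences but unlike sizes, from 0.05 to 2.08. Its brightest, at 0.25, did not pass. Of 25 genes known as let-7 targets 16 had values, 2 were higher and none lower, with a median of 0.08. They were MYCN and CDC25A, a phosphatase that activates cell cycle kinases, at 356 ± 22.8 in embryos (SD, n = 3) against 4.10 ± 5.50 in tissues (SD, n = 7) (log2 difference 2.49, limma adjusted p = 7.79e-05). The CDC25A call was lost with the embryo arrays averaged (limma adjusted p = 0.143). IGF2BP3, an RNA-binding protein of fetal tissue, had a log2 difference of 1.17 on its brightest probe set (limma adjusted p = 0.0568), while its other probe sets gave 0.73 (0.0183) and -0.37 (0.758). ACVR1B, an activin receptor, read lower in embryos on its brightest probe set without passing (-1.24, limma adjusted p = 0.159), and its other probe set gave 0.40 (0.351).

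**Figure D5:**
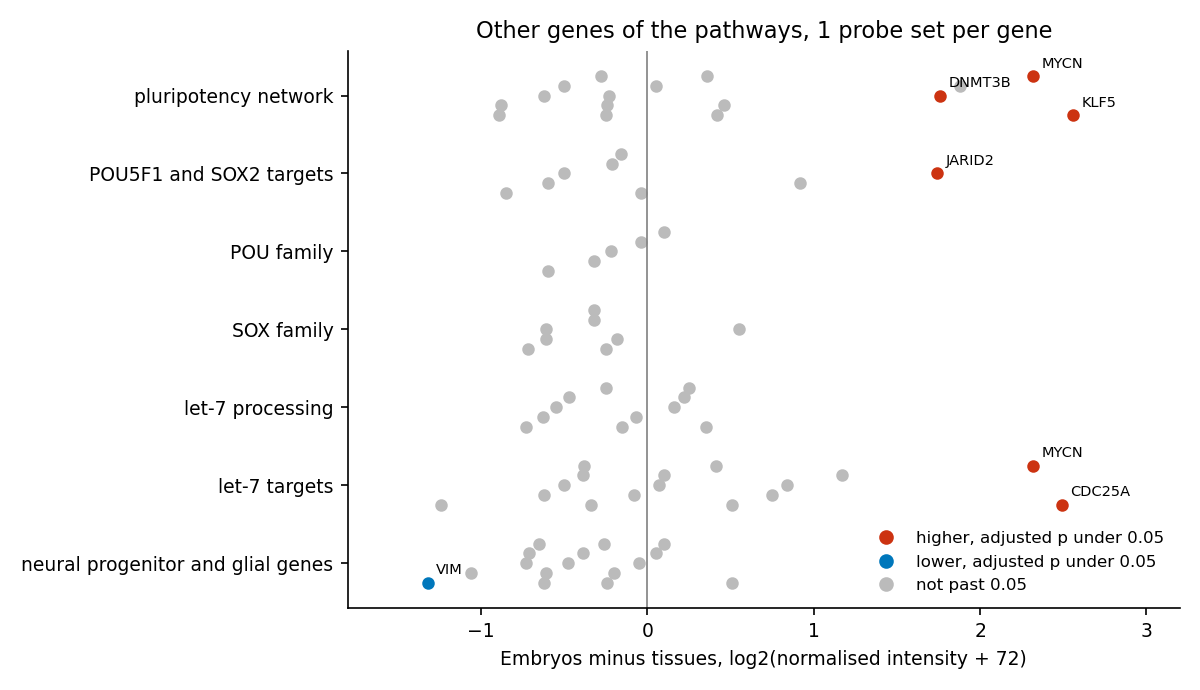
Log2 difference between embryos and tissues (horizontal axis, log2 of normalised intensity plus 72) for each gene with values in 7 lists, 1 point per gene by its brightest probe set, coloured by the limma call. KLF5, MYCN, DNMT3B, JARID2 and CDC25A are the genes called higher, VIM is called lower, and the POU family, SOX family and let-7 processing lists hold no gene called by its brightest probe set.

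Because SOX2 is also a gene of neural stem cells and glia, the neural list is given beside it. Of 24 neural progenitor and glial genes 16 had values, none was higher and 1 was lower, with a median of -0.43. The lower gene was VIM, vimentin, an intermediate filament protein, at 52.9 ± 6.22 in embryos (SD, n = 3) and 260 ± 138 in tissues (SD, n = 7) (log2 difference -1.32, limma adjusted p = 0.0178). That call was lost with the embryo arrays averaged (limma adjusted p = 0.697), without any 1 of the 3 embryo arrays (0.0919 to 0.101) and with an offset of 288 (0.0543). The summed intensity of the list was 1764 to 1831 on the embryo arrays and 8390 in brain. AQP4, NCAN and SLC1A2, an astrocyte water channel, a brain matrix proteoglycan and a glial glutamate transporter, read 1200, 2580 and 447 in brain and 32.3, 63.5 and 4.24 in embryos. For 5 of the 16 genes the embryo mean was above brain, among them NES at 614 against 575, HES1 at 171 against 123, GFAP at 151 against 126 and OLIG2 at 130 against 74.0. The probe sets of these named genes did not mark brain among the tissues. Their brightest tissue was liver for NES (769), lung for HES1 (617) and GFAP (233), and kidney for OLIG2 (96.9). Among 10 general brain markers 7 were brightest in brain, and 7 stayed below 72 on all 3 embryo arrays.

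Markers of the cells that an embryo pool could hold were checked in the same way. Of 12 trophectoderm genes with values, 5 were higher in embryos by their brightest probe sets (KRT8, KRT18, TFAP2C, ATP1B3 and SFN). The other 7 did not pass, with log2 differences from -0.01 for GATA2 to 1.02 for TFAP2A. Another probe set of GATA2 gave 1.64 (limma adjusted p = 0.00606). The summed intensity of the 12 was 14430 to 16800 on the embryo arrays against 1949 to 2909 in tissues. SFN and ATP1B3, with embryo means of 6959 and 4047, made up most of the embryo sum. Of 3 oocyte genes DDX4 was higher, and the list summed to 609 to 1198 on the embryo arrays and 174 to 901 in tissues. Of 6 cumulus and granulosa genes none passed (1 at an unadjusted p under 0.05), with sums of 568 to 955 and 385 to 869. Their log2 differences lay between -0.47 for INHA and 0.50 for FST, with a median of 0.38. Of 2 sperm genes none passed (0 at an unadjusted p under 0.05), with sums of 471 to 528 and 370 to 780. Of 3 blood genes HBB, a globin, was higher at 514 against 123 on its brightest probe set, with 1.45 (limma adjusted p = 0.00938) and -0.78 (0.0749) on its other ones, while ALAS2 (-0.25) and SLC4A1 (0.10) did not pass, and the list summed to 660 to 923 and 265 to 514. With the embryo arrays averaged and counted as 1 sample, the calls of the trophectoderm genes, DDX4 and HBB on their brightest probe sets were lost. The other probe sets of SFN, with log2 differences of 3.64 and 3.75, kept their calls. The part of oocyte or blood RNA in the embryo values of POU5F1, SOX2 and LIN28A was not tested. Among tissue labels, muscle markers were brightest in muscle for 9 of 10 genes, liver for 10 of 12, heart for 5 of 6, kidney for 3 of 5, lung for 3 of 5 and spleen for 0 of 4, whose sum was highest in liver.

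Genes up to 3 places from these loci in the bovine RefSeq table were looked up after the data were seen. Those with values did not pass. Most had no values, among them the genes directly beside POU5F1 and SOX2. CCHCR1, near POU5F1, read 450 in embryos and 458 in tissues. Near SOX2, FXR1, an RNA-binding protein, read 530 ± 108 in embryos (SD, n = 3) against 204 ± 145 in tissues (SD, n = 7), with a log2 difference of 1.24 and a limma adjusted p of 0.0535, and DCUN1D1 had a difference of -0.31 (0.458). Of the 4 neighbours of LIN28A with values, the differences lay between -0.35 for CRYBG2 and 0.42 for RPS6KA1 (limma adjusted p from 0.483 to 0.908).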

How the data were processed

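The authors deposited 1 linear intensity per probe set and array, in a table of 10 arrays. How they were computed, background-corrected and scaled, and a genome build, are not given in the labels used here. Of 22283 probe sets 10219 had values on all arrays and 12064 were blank; 33 manufacturer controls were left out. Symbols are those of the human platform annotation, in which 8847 of the analysed sets have 1 symbol, 479 several and 860 none. Array means trimmed by 2% at each end spanned 1.90-fold, more than 1.5, so arrays were quantile normalized. The offset is the 25th percentile, as a median across arrays. Tests used limma 3.58.1 (two-sided; lmFit, then eBayes, trend and robust) in R 4.3.3 on all probe sets, after runs on simulated data. Named genes are all the probe sets described, the 5 nearest in pattern, and from each list up to 5 past the threshold and 2 not. Other genes are named as background or label checks, chosen after their values were seen. The probe sets and lists were chosen with earlier results of these data known. Labels number only the embryo arrays, and groups come from titles. No protein, promoter or probe sequence was used. Alternatives were other scalings, offsets, filters, eBayes settings, averaged embryo arrays, another source of the spread, an exact permutation test and each array left out. Array number limits precision. Figures used matplotlib 3.10.9 in Python 3.11.15.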

Additional observations from a re-analysis of the deposited data

Results flagged for a closer look

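The SOX2 probe set stood apart on 1 of the 7 adult arrays. Its gap between brain and the next tissue, lung, was 0.699 of the whole adult range on the log2 scale, above Dixon's 95% critical value for 7 values, and none of the other 5 probe sets passed that value. Chance flags about 1 in 20 such groups, and here the 7 arrays are 7 different tissues rather than replicates.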

How the results depend on the processing

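The differences of all 6 probe sets between embryos and tissues kept their direction under every alternative that tested them. With the embryo arrays averaged they were 2.85, 3.14, 2.80, 2.41, 3.0 and 1.74 log2 for POU5F1, POU5F1P3, POU5F1P4, POU5F1B, SOX2 and LIN28A, and none passed; with averaged arrays and the filter at the array median SOX2 (3.0) did not pass. That filter, added after the data were seen, is met by the POU5F1-related sets only through the embryo arrays, so their passing there supports nothing. With single arrays left out LIN28A lay between 1.65 and 1.80, and did not pass without the second embryo array. The size of each difference depends on the offset, from 1.43 to 5.72 for POU5F1 and from 0.68 to 6.43 for LIN28A at offsets of 288 and 1. Over all probe sets 556 were higher and 177 lower. These counts were 3 and 0 with averaged arrays, 73 and 5 with averaged arrays and the filter, and 1734 and 2383 with the spread from embryo arrays alone. A filter on the mean over 10 arrays, which leaves all 6 probe sets untested, gave 320 higher. The lower calls were 291 with an offset of 1 and 85 with the larger offset. With single arrays left out 169 to 587 were called higher and 30 to 217 lower, with 203 higher without embryo array 1, 169 without 2 and 329 without 3. In the fit with 8 groups 41 of 42 pairs passed, and between 6 and 41 with an embryo array left out. No share of all probe sets is given for those reduced fits. With the values as deposited the median log2 difference of all probe sets was 0.12 in place of -0.05. The causes were not tested. No paired analysis was possible because only the embryo arrays carry replicate numbers.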
